A study of Homo sapiens with 6 samples.

Results

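RGS (regulator of G-protein signaling) genes were followed in the human acute myeloid leukemia line THP-1 after knockdown of the transcription factor NFIC. The 9 genes described here, RGS1, RGS2, RGS3, RGS10, RGS12, RGS14, RGS16, RGS18 and RGS19, were found by symbol among the 33981 genes of the count table. They were chosen by their read counts in the NFIC shRNA samples against the scrambled shRNA samples, so their differences between these groups are given as a description without a test. THP-1 cells were transduced with a lentiviral vector, the control carrying scrambled shRNA and the knockdown carrying NFIC shRNA, and GFP-sorted cells were sequenced on day 4, with 3 control (scrambled shRNA) and 3 knockdown (NFIC shRNA) samples. The study's methods describe the control vector as carrying GFP alone, whereas its results and the labels call it scrambled, the name kept here. The hairpin is named sh494 in the study, so the contrast rests on a single hairpin in a single cell line. All 6 samples share the cell line, the transduction and the sort for GFP. No source names the 3 samples of a group as separate cultures, so the standard errors and p-values measure the spread between these samples, which may be technical.

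RGS proteins end signals from G protein-coupled receptors. An activated receptor loads the alpha subunit of a heterotrimeric G protein with GTP, and the RGS domain speeds the hydrolysis of that GTP so that alpha and beta-gamma subunits come together again. In leukocytes the best known inputs are chemokine and chemoattractant receptors, which signal mainly through the Gi class. The family is divided by sequence. RGS1, RGS2, RGS3, RGS16 and RGS18 belong to the R4 subfamily, RGS10, RGS12 and RGS14 to the R12 subfamily and RGS19, also known as GAIP, to the RZ subfamily.

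With NFIC shRNA the RGS16 transcript was at 9.17% of its scrambled level and that of RGS18 at 217%. Among the other members, RGS2, RGS3, RGS12, RGS14 and RGS19 had mean levels between 120% and 126% of the scrambled level, RGS10 was at 92.2%, and RGS1 was at the limit of detection in both groups. These are levels of RNA in sorted populations, in which fewer cells expressing a gene and less of its RNA per cell cannot be told apart.

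The sequences before the starts of RGS16 and RGS18 are shown because these are the members with the largest fall and the largest rise. They are the 250 bases before the RefSeq start of each gene in GRCh38.p14, written 5′ to 3′ along the strand of the gene, at chr1:182604390-182604639 on the minus strand for RGS16 and at chr1:192158212-192158461 on the plus strand for RGS18. Capitals mark matches, on either strand, to the core of the NFI recognition sequence (TTGGC), the CCAAT box (CCAAT), the TATA box (TATAAA) and the AP-1 site (TGANTCA).
RGS16: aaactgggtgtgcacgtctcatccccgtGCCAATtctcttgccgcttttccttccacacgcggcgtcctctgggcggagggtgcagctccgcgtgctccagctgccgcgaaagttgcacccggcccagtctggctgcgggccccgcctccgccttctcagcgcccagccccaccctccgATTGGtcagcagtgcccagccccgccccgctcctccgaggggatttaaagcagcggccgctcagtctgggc
RGS18: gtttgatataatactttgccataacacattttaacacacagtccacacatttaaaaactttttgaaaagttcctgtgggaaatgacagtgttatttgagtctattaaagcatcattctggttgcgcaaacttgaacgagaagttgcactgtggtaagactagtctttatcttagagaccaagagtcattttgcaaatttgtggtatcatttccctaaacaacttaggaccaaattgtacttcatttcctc
In RGS16 an NFI core began at position -222 from the transcription start and overlapped a CCAAT box at -221, so that both read GCCAAT on this strand, and a further CCAAT box, on the opposite strand, lay at -71. The window of RGS18 held no match to any of the 8 motifs searched, each on both strands. Its G and C content was 34.8%, against 68.4% for RGS16 and a median of 58.0% over all 35116 RefSeq windows of this length.

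All 9 members matched RefSeq windows, 19 in all, since RGS3, RGS10, RGS12 and RGS19 have more than 1 annotated start. The NFI core was present in 7 of these 19 windows, in RGS3, RGS10, RGS12 and RGS16, and in 40.8% of all windows. The full NFI palindrome, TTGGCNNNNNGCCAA, which contains the core, was present in none of them and in 0.0285% of all windows. The CCAAT box was present in 3 member windows, of RGS2, RGS3 and RGS16, against 32.0% of all windows, and the GC box (GGGCGG) in 10 against 42.6%. The TATA box was found for RGS1 and RGS3 (10.7% of all windows) and the letters GAGGAAGT, bound by the myeloid factor PU.1, for RGS19 (2.17%). The cyclic AMP response element (TGACGTCA, 1.65% of all windows) and the AP-1 site (6.57%) were present in no member window. A match here is a match of letters, and binding was not measured.

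The targeted gene, NFIC, had 911, 1019 and 904 counts in the control and 399, 518 and 493 in the knockdown samples. It was expressed at 41.9 ± 0.445 CPM in the control and 21.0 ± 1.52 CPM in the knockdown samples (mean ± SD, n = 3 per group), and edgeR's quasi-likelihood test gave a log2 fold change of -0.99 (SE 0.072, adjusted p = 3.73e-09), at 50.1% of the control level. The libraries held from 20369543 to 24809720 counts each, at which 3 counts, taken as the detection floor, correspond to between 0.122 and 0.145 CPM. This floor covers counting error only. All 8 monocytic and myeloid markers checked were detected, and they did not move together. CD14, LYZ and ITGAM had log2 fold changes of 0.65, 0.72 and 0.99, CSF1R, CD33, CD68 and MPO had -0.59, -0.97, -1.01 and -0.26, all called, and FCGR1A, not called, had 0.016. Their summed level, between 1199 and 1305 CPM in the control samples and between 1353 and 1548 CPM with NFIC shRNA, was dominated by LYZ, which had a mean of 572 CPM in the control and 940 CPM in the knockdown samples. B cell markers, of which MS4A1 was not analysed here, summed to 23.1 to 25.1 CPM in the control and 16.3 to 17.9 CPM in the knockdown samples. T and NK cell markers, nearly all of them NKG7, summed to 5.28 to 5.55 and 1.86 to 2.54 CPM, with CD3D at 1 count in a single sample and CD3E, CD3G, CD2 and TRAC not analysed here. Erythroid markers summed to at most 0.173 CPM.

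Per base of transcript, RGS19 was the most abundant member in every sample. FPKM, the deposited level per kilobase of gene length, was 43.0, 44.4 and 45.0 for RGS19 in scrambled replicates 1, 2 and 3, or 53.3% to 54.9% of the sum over the 9 genes. RGS10 followed at 17.6 ± 0.285 FPKM (SD, n = 3), then RGS14 at 6.73 ± 0.727, RGS18 at 5.64 ± 0.315, RGS16 at 3.57 ± 0.239, RGS12 at 1.99 ± 0.0557, RGS2 at 1.46 ± 0.197, RGS3 at 0.493 ± 0.0505 and RGS1 at 0.0357 ± 0.0120. No neighbours in this order overlapped between their 3 scrambled samples. For 7 members the deposited length equals the bases in all exons annotated in GENCODE 44. For RGS3 and RGS12 it is 13793 and 13755 bases, against 13152 and 13762 there. Where only a shorter isoform is expressed, its level per base would be higher than these FPKM values.

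**Figure D1:**
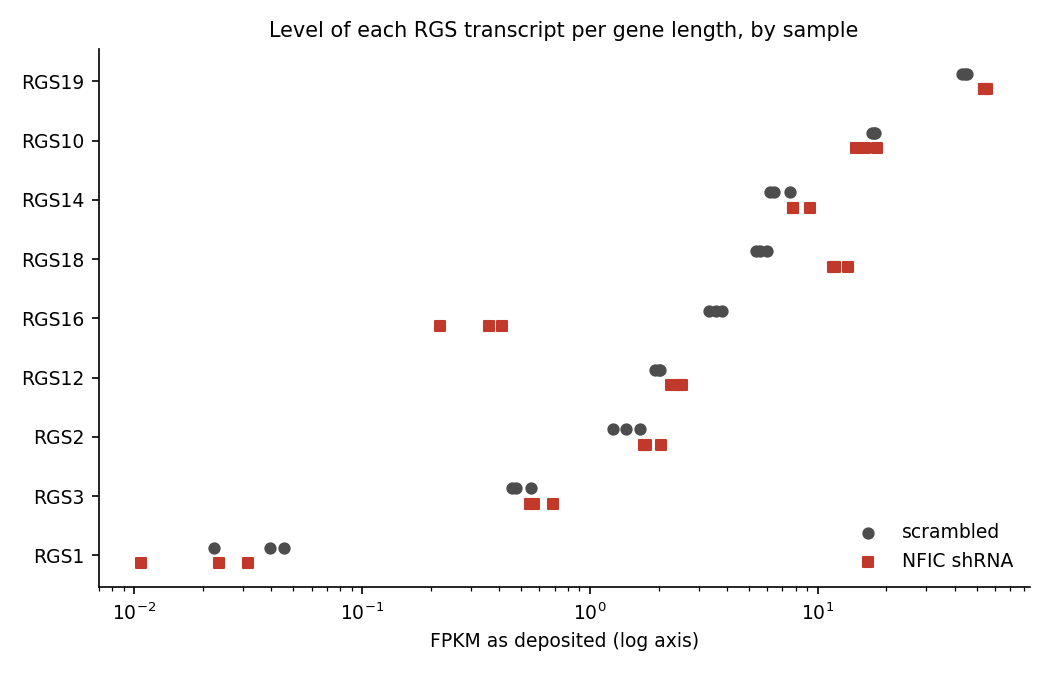
FPKM of the 9 RGS genes in each sample on a log axis, with genes ordered by their mean in the 3 scrambled samples (circles: scrambled, squares: NFIC shRNA). RGS19 is highest in all 6 samples, RGS16 lies between 3.33 and 3.81 FPKM with scrambled shRNA and between 0.220 and 0.410 FPKM with NFIC shRNA, and RGS18 moves above RGS14.

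With NFIC shRNA the order changed for RGS16 and RGS18. RGS18, at 12.4 ± 1.06 FPKM (SD, n = 3), stood above RGS14, at 8.28 ± 0.848 FPKM. RGS16, at 0.331 ± 0.0989 FPKM, stood below RGS12, RGS2 and RGS3, and above RGS1 alone. In this group too, no neighbours in the order overlapped between their samples. The sum over the 9 genes was 79.6, 80.9 and 84.4 FPKM in the control and 94.5, 96.6 and 98.6 FPKM in the knockdown samples. RGS16 made up 4.18% to 4.51% of this sum with scrambled shRNA and 0.233% to 0.425% with NFIC shRNA, while RGS18 went from between 6.62% and 7.09% to between 12.03% and 13.8%. The R4 genes together held 13.2% to 14.3% of the sum in the scrambled samples and 14.9% to 16.8% in the NFIC shRNA samples.

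Of the 9 members, 8 passed edgeR's filter on low counts and RGS1 did not. In the fit over all 19182 genes tested, 59.9% of genes were called at an adjusted p under 0.05, 29.6% as higher and 30.3% as lower with NFIC shRNA. Of the 8 members tested, 5 were called, RGS12, RGS14, RGS18 and RGS19 as higher and RGS16 as lower, a count from which nothing is read because the contrast chose the members. The CPM values of the groups did not overlap for 6 of the 8 members, these 5 and RGS2, against 65.2% of all genes tested. The median log2 fold change was 0.28 over the 8 members and -0.011 over all genes tested. Nothing is read from the overlap or the median either, since the contrast chose the members.

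**Figure D2:**
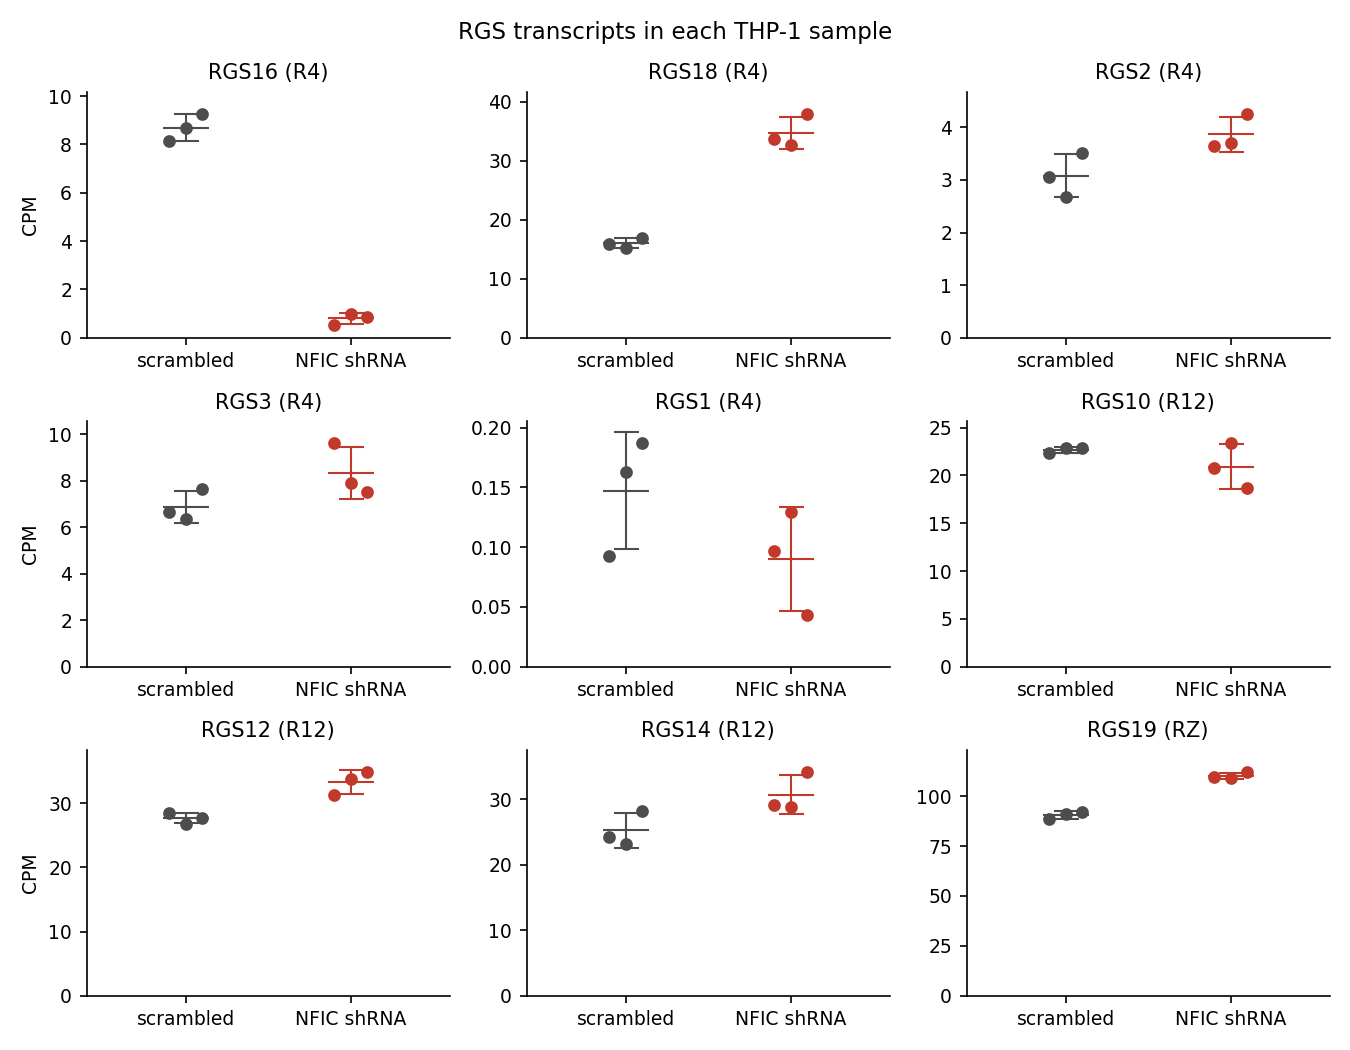
CPM of each RGS gene in the 3 scrambled and 3 NFIC shRNA samples, with a panel and a linear axis from 0 for each gene (points: samples, bars: mean ± SD). RGS16 falls from 8.69 to 0.797 CPM on average and RGS18 rises from 16.0 to 34.7 CPM, RGS1 is at the detection floor in both groups, and the mean levels in the other 6 panels are between 92.2% and 126% of the control.

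RGS16, a GTPase activator for Gi and Gq alpha subunits, is encoded on chromosome 1 of GRCh38 from 182598623 to 182604389 (ENSG00000143333). Its raw counts were 176, 214 and 198 in scrambled replicates 1, 2 and 3 and 11, 23 and 20 in NFIC shRNA replicates 1, 2 and 3. The groups were far apart, with every control sample well above every knockdown sample. In CPM the level was 8.69 ± 0.555 in the control and 0.797 ± 0.237 in the knockdown samples (mean ± SD, n = 3 per group). The log2 fold change was -3.42 (standard error 0.19), a 10.7-fold lower level, and it lay between -3.60 and -3.21 over 12 alternative fits. All 3 NFIC shRNA values were above the detection floor, and the lowest, 0.534 CPM in replicate 1, was 0.47 below the group mean on the log2 scale. RGS8, the RGS gene next to RGS16 at a distance of 37.4 kb, had 8, 7 and 9 counts in the control and 11, 6 and 4 in the knockdown samples and did not pass the filter.

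RGS18, an R4 protein best known from platelets and other hematopoietic cells, lies at 192158462 to 192185815 on chromosome 1. Its raw counts were 343, 374 and 362 in the control and 693, 758 and 873 in the knockdown samples. Each knockdown sample was above every control sample, with NFIC shRNA replicate 3 the highest. The level was 16.0 ± 0.863 CPM in the control and 34.7 ± 2.75 CPM in the knockdown samples (mean ± SD, n = 3 per group), or 2.17-fold higher in the knockdown. The log2 fold change was 1.12 (standard error 0.082). Over 12 alternative fits it lay between 1.06 and 1.17. Of 5 markers of megakaryocytes and platelets, ITGA2B, GP9 and GP1BA were detected, PF4 and PPBP were not analysed here, and the summed level was between 11.3 and 13.8 CPM in the control samples and between 6.98 and 7.93 CPM with NFIC shRNA. ITGA2B, the platelet integrin alpha chain, fell by 1.83 on the log2 scale (standard error 0.16, adjusted p = 3.25e-08 from edgeR). GP9 fell by 0.84 on the log2 scale (adjusted p = 0.00764), and GP1BA had 0.21 (adjusted p = 0.380). All these transcripts were measured in sorted THP-1 cells, and how their levels relate to that of RGS18 was not tested.

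RGS18 was the only member with an exon that overlaps another gene in both the GENCODE 44 annotation and the count table. The gene is the long noncoding RNA AL390957.1 on the opposite strand, which shares 153 exonic bases with it. Its counts were 91, 75 and 83 in the control and 171, 156 and 179 in the knockdown samples, a log2 fold change of 1.04 (SE 0.15, edgeR adjusted p = 1.35e-05). No source states that strand was used in counting, so reads of the overlap cannot be assigned to either gene. It was named after its values were seen.

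RGS2, RGS1 and RGS18 belong to a run of 5 R4 genes, RGS18, RGS21, RGS1, RGS13 and RGS2, that lie in this order on the plus strand within 653.8 kb of chromosome 1, from 192158462 to 192812275. Of those with values here, RGS18 had the highest counts. RGS1, which restrains chemokine responses of lymphocytes, had 2, 4 and 4 counts in the control and 2, 3 and 1 in the knockdown samples. These values are at the detection floor in both groups, so no fold change is given. RGS13 had 1 count in a single sample, and RGS21 was not analysed here. RGS2, an inhibitor of Gq signaling, had 66, 66 and 75 counts in the control and 75, 86 and 98 in the knockdown samples. In CPM its groups were just separate, with 3.50 in the highest scrambled and 3.64 in the lowest NFIC shRNA sample. The log2 fold change of RGS2 was 0.33 (standard error 0.17), between 0.23 and 0.43 over the alternatives.

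RGS3, a longer R4 protein with several isoforms that acts on Gi and Gq, lies on chromosome 9 from 113444731 to 113597743. It had counts of 144, 156 and 164 in the scrambled and 198, 183 and 173 in the NFIC shRNA samples. In CPM the groups overlapped, since scrambled replicate 3, at 7.66, was above NFIC shRNA replicate 3, at 7.50. Its log2 fold change was 0.27 (standard error 0.13), and the alternatives gave values from 0.17, without NFIC shRNA replicate 1, to 0.35, without NFIC shRNA replicate 3 or without scrambled replicate 3. It was among the genes called only without NFIC shRNA replicate 3, from which nothing is read because the contrast chose the members.

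Of the R12 members, RGS10 is the smallest and consists of little more than the RGS domain, with activity on Gi. The gene lies on chromosome 10 from 119499817 to 119542719. Its level was 22.3, 22.9 and 22.8 CPM in the control and 20.8, 23.4 and 18.6 CPM in the knockdown samples. The highest and the lowest of the 6 values were both in the NFIC shRNA group. The log2 fold change of RGS10 was -0.12 (standard error 0.087), and the alternatives gave values from -0.20, without NFIC shRNA replicate 2, to -0.034, without NFIC shRNA replicate 3. RGS10 made up 21.1% to 21.9% of the summed FPKM of the 9 genes with scrambled shRNA and 14.9% to 18.9% with NFIC shRNA.

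RGS12 and RGS14 are multidomain scaffolds that carry, besides the RGS domain, Ras-binding domains and a GoLoco motif that binds GDP-loaded Gi alpha. RGS12 lies on chromosome 4 from 3293021 to 3439913 and RGS14 on chromosome 5 from 177357924 to 177372596. RGS12 had 28.5, 26.9 and 27.8 CPM in the scrambled and 31.3, 33.9 and 34.8 CPM in the NFIC shRNA samples, without overlap between the groups. For RGS12 the log2 fold change was 0.27 (standard error 0.071). RGS14 had 24.3, 23.2 and 28.3 CPM in the control and 29.2, 28.9 and 34.1 CPM in the knockdown samples. Its highest scrambled value was close to the lowest NFIC shRNA value, and the spread within each group was wide. The log2 fold change of RGS14 was 0.29 (standard error 0.089). Without scrambled replicate 1 or without scrambled replicate 2 it was 0.25 or 0.22, and RGS14 was not called. Nothing is read from these calls, since the contrast chose the members.

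RGS19, which acts on Gi and Gz alpha subunits and is anchored to membranes by palmitoylation, lies on chromosome 20 from 64073181 to 64079988. It was the member with the highest counts, 1917, 2243 and 1972 in the control and 2258, 2536 and 2584 in the knockdown samples. Its level was 90.6 ± 1.80 CPM in the control and 110 ± 1.49 CPM in the knockdown samples (mean ± SD, n = 3 per group). The groups were clearly separate, with the smallest scatter on the log2 scale of all members tested. For RGS19 the log2 fold change was 0.28 (standard error 0.050). It was 0.23 with upper-quartile factors, a scaling under which the median log2 fold change of all genes was -0.068.

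Replicates deviated from their group means in the same direction for several members. Of the 8 members tested, 6 had their highest scrambled log2 CPM in replicate 3 and 5 had their lowest in replicate 2. With NFIC shRNA, 5 of the 8 were highest in replicate 3. These offsets were largest for RGS16 in the NFIC shRNA samples, from -0.47 to 0.32 on the log2 scale, where 11 to 23 counts were available. They were smallest for RGS19, from -0.032 to 0.024 over both groups. Whether such offsets are particular to the RGS members was not tested.

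**Figure D3:**
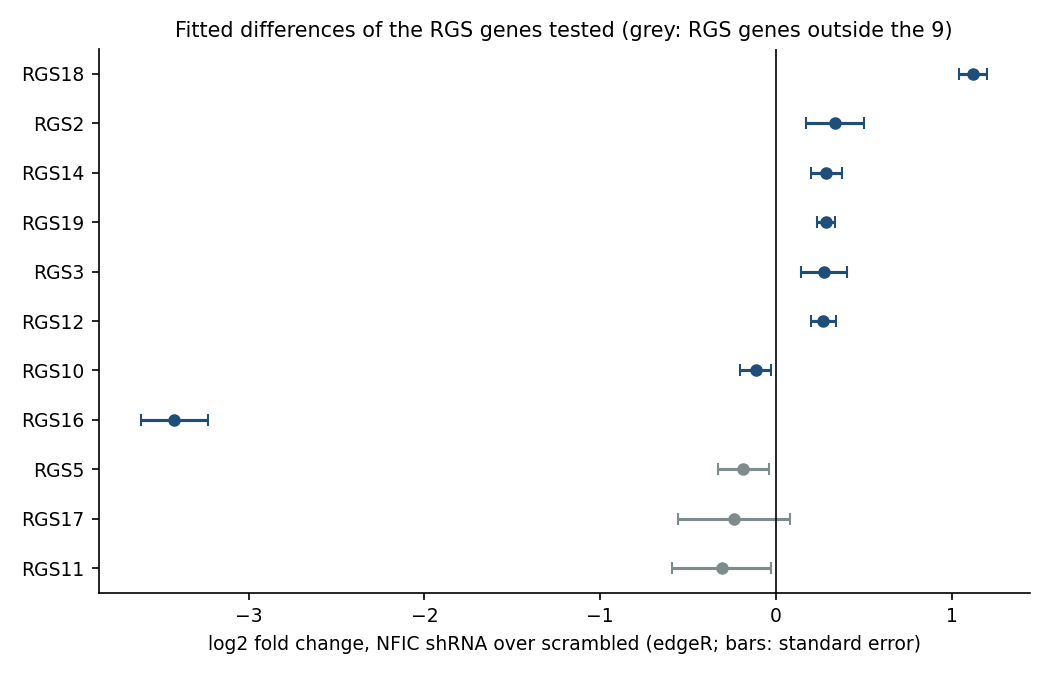
Log2 fold change of NFIC shRNA over scrambled shRNA from edgeR for the 8 members tested (blue) and for the 3 RGS genes tested outside the 9 (grey), with standard errors as bars. RGS16 at -3.42 and RGS18 at 1.12 lie apart from the other genes, which are between -0.31 and 0.33.

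Besides the 9 members, 12 further RGS genes were listed from general knowledge, of which 9 were in the table and 3 were tested. RGS5, the most abundant of them, had 117, 155 and 118 counts in the control and 106, 133 and 99 in the knockdown samples. The log2 fold changes of RGS5, RGS11 and RGS17 were -0.19, -0.31 and -0.24, and their edgeR adjusted p were 0.282, 0.354 and 0.536. Leaving out a library moved RGS5 to between -0.29, without NFIC shRNA replicate 2, and -0.075, without NFIC shRNA replicate 3. RGS11 had -0.099 without scrambled replicate 3 and -0.48 without scrambled replicate 2, and RGS17 had 0.030 without scrambled replicate 1 and -0.55 without scrambled replicate 2. None of these 3 was called, and 0 of 3 had an unadjusted p under 0.05. Without the filter on low counts, edgeR called 2 other genes of the list, RGS22 and RGS9, as lower, and DESeq2 called RGS22. RGS22 had 9, 16 and 12 counts in the control and 2, 2 and 4 in the knockdown samples. RGS4, RGS8, RGS13 and RGS20 had 11 counts or fewer in every sample, and RGS6, RGS7 and RGS21 were not analysed here. RGS9, an R7 protein known from photoreceptors and neurons, had 12, 9 and 14 counts in the control and 4, 4 and 3 in the knockdown samples.

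The patterns most like those of the 2 members with an absolute log2 fold change above 1 were sought among the 15234 genes with a mean log2 CPM of at least 1, by the Euclidean distance between mean-centred log2 CPM values over the 6 samples. Among the nearest to RGS16 were MMP2 and CHI3L1, at distances of 0.520 and 0.727 and with log2 fold changes of -3.37 and -3.08. Their levels differed widely, with 1625 CPM for CHI3L1 and 81.3 CPM for MMP2 in the scrambled samples. Nearest to RGS18 were AC068580.4, MSRB1 and VSIG2, at distances of 0.0912, 0.101 and 0.102 and with log2 fold changes of 1.13, 1.09 and 1.16. With 2 groups of 3 samples, such a distance is set mostly by the difference between the groups.

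The G protein alpha subunits, which include the substrates of RGS proteins, were tested with the rest of the table. Of 13 tested, 4 were called as higher and 2 as lower, against 29.6% and 30.3% of all genes tested. Their median log2 fold change was 0.0074. GNAQ, which encodes Gq alpha and activates phospholipase C beta, rose from 76.3 ± 1.38 CPM to 169 ± 8.90 CPM (mean ± SD, n = 3 per group), for a fitted log2 fold change of 1.15 (SE 0.054, edgeR adjusted p = 2.71e-11). Its close relative GNA11 fell by 0.86 on the log2 scale (standard error 0.086, adjusted p = 1.52e-07 from edgeR). All 3 Gi alpha genes were called as higher. GNAZ, which encodes Gz alpha and was named after its values were seen, had a log2 fold change of -0.73 and was not called. GNAI3 rose from 124 ± 2.61 to 185 ± 8.0 CPM (mean ± SD, n = 3 per group), with a log2 fold change of 0.57, and GNAI2, which was named after its values were seen, had 0.34. GNAI1, at 1.64 CPM with scrambled shRNA, had 0.75 (adjusted p = 0.0136 from edgeR), which became 0.47 (adjusted p = 0.0821) without scrambled replicate 3. GNA12, a G12 class subunit, fell by 0.49 on the log2 scale (adjusted p = 1.31e-05 from edgeR).

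Of the 11 beta and gamma subunit genes tested, 5 were called as higher and 3 as lower, against 29.6% and 30.3% of all genes. Their median log2 fold change was 0.23. GNG10 rose from 16.2 ± 0.665 CPM to 45.0 ± 3.84 CPM (mean ± SD, n = 3 per group), for a fitted log2 fold change of 1.47 (edgeR adjusted p = 1.27e-10), and GNG5 rose by 0.43 on the log2 scale. GNB5, the atypical beta subunit that pairs with R7 RGS proteins, fell from 29.7 ± 1.41 CPM to 11.4 ± 1.29 CPM (mean ± SD, n = 3 per group), for a fitted log2 fold change of -1.37 (edgeR adjusted p = 1.22e-09). GNB1, which encodes the most widely used beta subunit, went from 455 ± 4.4 to 331 ± 8.38 CPM (mean ± SD, n = 3 per group) and had -0.46. GNB3 had 0.47 (adjusted p = 0.0206 from edgeR), but its adjusted p was 0.0593 with DESeq2, 0.0694 without NFIC shRNA replicate 1 and 0.123, with a log2 fold change of 0.30, without scrambled replicate 2.

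The receptors whose signals RGS proteins end were the list with the widest range and also the list with the most genes tested. Of 42 monocyte G protein-coupled receptors tested, 12 were called as higher and 17 as lower, against 29.6% and 30.3% of all genes. The median log2 fold change was -0.18. CCR2, the receptor for the monocyte chemokine CCL2, fell from 152 ± 7.75 CPM to 25.1 ± 0.375 CPM (mean ± SD, n = 3 per group), for a fitted log2 fold change of -2.59 (SE 0.060, edgeR adjusted p = 1.20e-14). C3AR1, the receptor for complement C3a, fell by 2.52 on the log2 scale (adjusted p = 1.87e-05 from edgeR). FPR2, a formyl peptide receptor, rose from 3.38 ± 0.313 CPM to 17.2 ± 1.41 CPM (mean ± SD, n = 3 per group), for a fitted log2 fold change of 2.34 (edgeR adjusted p = 6.60e-11). GPR84, a receptor for medium-chain fatty acids, and S1PR3, a sphingosine-1-phosphate receptor, had 2.25 and 1.40 (adjusted p = 9.02e-10 and 3.25e-07 from edgeR).

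**Figure D4:**
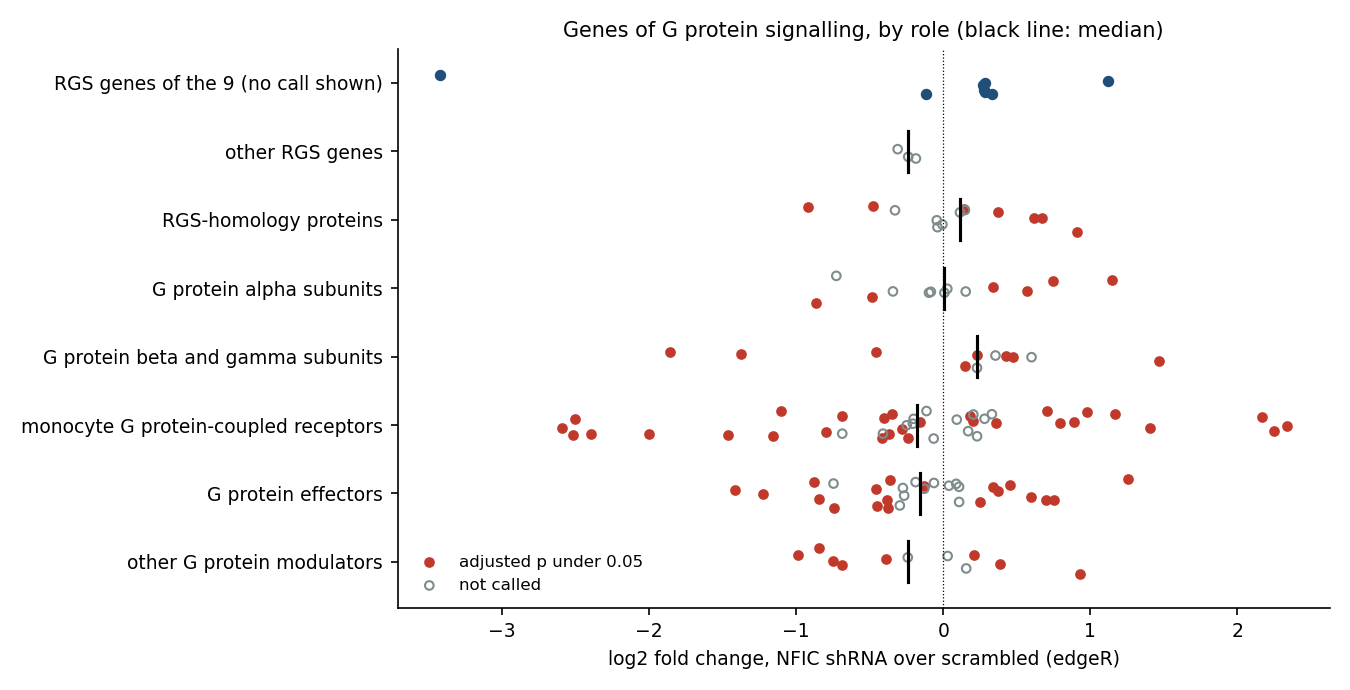
Log2 fold change of every tested gene of the G protein signaling lists, by role, with the RGS members in blue at the top (filled red: adjusted p under 0.05 from edgeR, open grey: not called, black line: median of the list). The receptors spread from -2.59 for CCR2 to 2.34 for FPR2, and all lists outside the RGS genes hold called genes on both sides of 0. Over all genes tested, 29.6% were called as higher and 30.3% as lower.

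Downstream of the receptors, 8 of the 30 effector genes tested were called as higher and 11 as lower, against 29.6% and 30.3% of all genes. Their median was -0.16. Among genes of the cyclic AMP branch, the regulatory subunits of protein kinase A PRKAR2B and PRKAR1A had log2 fold changes of 1.26 and 0.75 (adjusted p = 4.85e-06 and 1.96e-09 from edgeR). The adenylyl cyclases ADCY1 and ADCY6 had -0.88 and -0.85 (adjusted p = 2.39e-07 and 2.73e-07), and the phosphodiesterase PDE4B had -1.23 (adjusted p = 1.30e-06). PIK3CG, the kinase PI3K gamma that beta-gamma subunits activate, rose from 58.0 ± 4.66 CPM to 94.4 ± 9.70 CPM (mean ± SD, n = 3 per group), for a fitted log2 fold change of 0.70 (edgeR adjusted p = 6.26e-07).

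Other proteins carry an RGS-like domain without belonging to the RGS family proper. Of 13 such genes tested, 5 were called as higher and 2 as lower, against 29.6% and 30.3% of all genes. Their median was 0.11. GRK6, a kinase that phosphorylates activated receptors, rose from 85.5 ± 3.92 CPM to 136 ± 2.16 CPM (mean ± SD, n = 3 per group), for a fitted log2 fold change of 0.67 (edgeR adjusted p = 9.81e-09), whereas its relative GRK3 fell by 0.48 on the log2 scale (adjusted p = 1.25e-06). The sorting nexin SNX13 and the anchoring protein AKAP10 had 0.91 and 0.62 (adjusted p = 3.13e-09 and 5.01e-07). ARHGEF12, a guanine nucleotide exchange factor driven by G12 class subunits, fell by 0.92 on the log2 scale (adjusted p = 6.99e-08 from edgeR).

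Of the 11 other modulators tested, 3 were called as higher and 5 as lower, against 29.6% and 30.3% of all genes. Their median was -0.24. The list holds the GPSM genes, whose proteins share the GoLoco motif with RGS12 and RGS14. GPSM2 rose from 43.5 ± 1.01 CPM to 83.0 ± 9.19 CPM (mean ± SD, n = 3 per group), for a fitted log2 fold change of 0.93 (edgeR adjusted p = 8.65e-09), while GPSM3, at 129 CPM with scrambled shRNA, and GPSM1 fell by 0.99 and 0.75 on the log2 scale (adjusted p = 3.42e-10 and 3.51e-06). PCP2, a further GoLoco protein, fell by 0.85 on the log2 scale (adjusted p = 0.00218). RIC8A, a chaperone and exchange factor of alpha subunits, rose by 0.39 on the log2 scale (adjusted p = 1.60e-05). CCDC88A, also called GIV or Girdin, had 0.21 (adjusted p = 0.00983), which was 0.18 (adjusted p = 0.0556) without scrambled replicate 1 and 0.13 (adjusted p = 0.0405) without NFIC shRNA replicate 3.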

How the data were processed

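Bulk mRNA of 3 scrambled shRNA and 3 NFIC shRNA samples of THP-1 cells was analysed. The authors trimmed the reads with Trim Galore, mapped them to GRCh38 with STAR and counted them per gene with featureCounts on Ensembl release 96 gene models, and the deposited counts are not normalized. The authors also deposited FPKM, which equal the counts divided by gene length and by a constant for each sample. The kit named in the labels is not described there as strand-specific, and strand settings and versions are not given in the sources used here. The deposited normalized counts and the columns of the authors' own comparison (fold changes and p-values) were not used.

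Counts were tested with edgeR 4.0.16 in R 4.3.3 (TMM factors, filter on low counts, robust quasi-likelihood test, Benjamini-Hochberg adjustment over 19182 genes, threshold 0.05), without a replicate block. CPM were scaled by the TMM factors. The standard error is the size of the log2 fold change divided by the square root of F. For a single gene, an exact permutation test of 3 against 3 samples cannot give a two-sided p under 0.1. Replicate pairs differed by more than sampling noise (chi-square per degree of freedom from 1.98 to 7.84). Positions are from GENCODE 44 and sequences from RefSeq windows of GRCh38.p14. No protein sequences were used here.

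The members, the lists of G protein signaling genes and the rules were chosen with earlier results of these data known. Named were the members, NFIC, the other RGS genes tested and, of each list, the 3 called genes with the largest rise and the 3 with the largest fall at a mean log2 CPM of at least 1. For members with an absolute log2 fold change above 1, the 3 genes at the smallest distance over log2 CPM (prior count 2) were named too. Some genes that these rules name are not reported here. AL390957.1, GNAI2, GNAZ and the low-count RGS genes are outside this rule, as are the markers, which were fixed as a list of their own. The fits were tried on simulated counts with known changes. Alternatives were DESeq2 1.42.0, other scalings, no filter, a replicate block and each sample left out in turn.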

Additional observations from a re-analysis of the deposited data

How the results depend on the processing

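Over 12 alternatives (scaling by DESeq2 size factors, by upper quartiles or by library totals, DESeq2 itself, no filter on low counts, the replicate number as a block, and each of the 6 samples left out), no member changed the sign of its log2 fold change. Of 96 values for the 8 members tested, 95 moved by less than the spread between replicates, and the exception was RGS19 at 0.23 with upper-quartile factors. Leaving out a sample can hardly move a value by more than this spread, and other scalings move all genes by a similar amount. The count is therefore no measure of stability. With the replicate block RGS16 had -3.43, RGS18 1.12 and NFIC -0.996, and the count of genes called was 10983, against 11486. Across genes, deviations from the group means of samples with the same number correlated at 0.0563, -0.0862 and -0.0446, so the numbers were not taken as pairs. Of the RGS genes outside the 9, where none was called in the analysis as reported, 1 was called with DESeq2 and 2 without the filter, and between 0 and 2 when a sample was left out, because RGS9 and RGS22 then passed the filter or were tested without it. RGS17 lay between -0.55 and 0.030 when a sample was left out, with the positive value without scrambled replicate 1. Among the other genes named from the lists, 5 values lost their call, for GNAI1, GNB3 and CCDC88A, and the cause was not tested. The counts of the other lists and of all genes called stayed within 1.5 times in every alternative run. Depth limits RGS1, RGS4, RGS8, RGS9, RGS13, RGS20 and RGS22, at 16 counts or fewer in every sample, for which small changes were not detectable.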
